A study of Arabidopsis thaliana with 8 samples.

Results

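Transcripts of the Arabidopsis thaliana mutant cob-6 were compared with those of the wild type Columbia (Col-0, written WT) in 4 of the 8 RNA-seq libraries of the series, chosen by the genotype in the labels: 2 libraries of cob-6 and 2 of WT. All libraries came from whole seedlings aged 7 days and kept in 24 h of light. The cob-6 plants carry an allele of COB and no labelled change in MED16. The other 4 libraries, 2 of sfr6-3 (an allele of MED16, a tail subunit of the Mediator complex) and 2 of the double mutant cob-6sfr6-3, entered the fit only to estimate the spread between replicates, and served as a second pair of genotypes that differ by cob-6. The labels do not give the lesion of cob-6, nor say whether seedlings were pooled or replicates grown separately, and the p-values therefore describe spread between these samples alone, which may be technical.

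COB encodes COBRA, a glycosylphosphatidylinositol-anchored protein at the plasma membrane and in the wall of growing cells. It is needed for the ordered deposition of cellulose, and plants with little of it have swollen roots because cells expand sideways. Cellulose itself is made at the plasma membrane by complexes of CESA subunits, which move along cortical microtubules with partners such as CSI1 and KOR. A seedling holds root and shoot together, so the same libraries read genes of root hairs, endodermis and green tissue.

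Depth was 25195271 and 24011199 gene reads in cob-6 and 26218809 in WT replicate 2, but 324504432 in WT replicate 1. Levels are read counts scaled by TMM to a common library size (CPM), and 3 reads of a gene, taken as the floor, corresponded to 0.00928 CPM for WT replicate 1 and to between 0.115 and 0.123 CPM for the other 3 libraries compared. WT replicate 1 stood apart in a way that bears on every result. In reads unique to a gene, none of 25179 genes had fewer reads in it than in the other 7 libraries together, and 1178 had exactly their sum. Its median distance over genes was 0.222 from WT replicate 2 on the log2 CPM scale, and 0.173 and 0.171 from the cob-6 libraries. The table thus leaves room for every read of the cob-6 libraries to be in this column as well. Whether they are was not tested. If they were, fold changes with this library would tend to be drawn towards 0. It would also tend to lie between WT replicate 2 and cob-6 for that reason alone. Reads of sfr6-3 and the double mutant could be there too, so not every gene need lie there. Counts over genes and lists are therefore given with all 8 libraries and with WT replicate 2 as the only wild type. In the second fit, the spread of the lone WT library is assumed to be that of the other genotypes.

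COB checked the labels. Its level was 143 and 239 CPM in the WT pair but 68.3 and 66.9 CPM in the cob-6 pair. Both cob-6 libraries lay below both WT libraries, and WT replicate 1 lay between WT replicate 2 and cob-6. COB fell by 1.5 ± 0.21 (SE) on the log2 scale with all 8 libraries (edgeR's quasi-likelihood test, Benjamini-Hochberg adjusted p = 0.0251), and by 1.82 ± 0.17 with WT replicate 2 alone (adjusted p = 0.000393). MED16, which the labels do not list as altered in cob-6, stood at 24.3 and 34.5 CPM in WT and at 29.3 and 39.1 CPM in cob-6, so its groups overlapped. Its log2 fold change was 0.23 ± 0.23 (adjusted p = 0.999), and -0.01 ± 0.26 with WT replicate 2 alone (adjusted p = 1.0).

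The reads of COB (AT5G60920, chromosome 5, 24511196 to 24514129 in the deposited table, with no build named there) also differed in kind. Reads of the gene that lay outside its exons made up 1.29% (95% Wilson interval 0.863 to 1.93, 23 of 1779 reads) and 1.72% (1.19 to 2.47, 28 of 1630 reads) in the cob-6 libraries. The share was 0.0679% in WT replicate 2 (0.0264 to 0.175, 4 of 5889 reads). The sfr6-3 libraries, whose COB is not mutated, gave 0.0209% and 0.0601%. The cob-6 shares were thus above those of these 3 libraries beyond counting error, which is all that the intervals cover. Among 7795 genes with at least 500 reads in each library other than WT replicate 1, only 2, PBG1 and AAO1, had a larger gap between cob-6 and these 3 libraries; both were singled out after their values were seen. The double mutant, which also carries cob-6, gave 1.70% and 0.421%. WT replicate 1 gave 0.464% (0.406 to 0.530), above WT replicate 2 and below cob-6. The share was 0.484% (0.401 to 0.583) in its remainder once the summed reads of the other 7 had been subtracted.

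**Figure D1:**
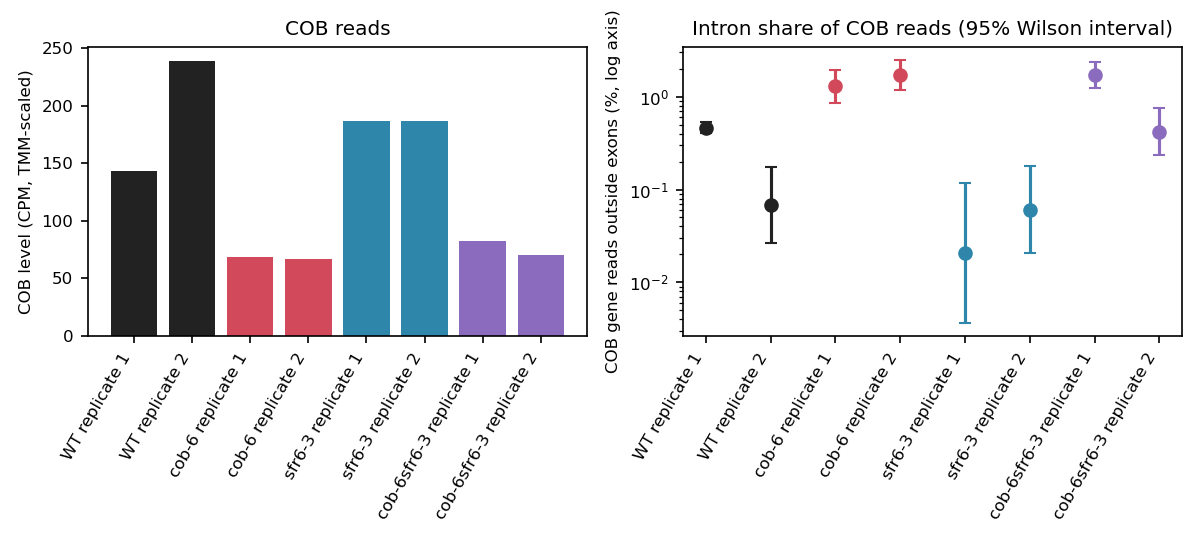
COB in the 8 libraries. Left, the level in CPM, 1 bar per library; right, the percentage of COB gene reads outside exons on a log axis, with 95% Wilson intervals. COB is at 66.9 to 82.5 CPM in the 4 libraries with the cob-6 allele and at 143 to 239 CPM in the others, and WT replicate 1 has an intron share of 0.464%, between WT replicate 2 and cob-6.

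With all 8 libraries in the fit, 19 of 21384 tested genes passed an adjusted p of 0.05, or 0.0889%, and all 19 were lower in cob-6. None was higher in edgeR on total gene reads (0.0%), where 408 genes were higher at an unadjusted p below 0.05 (1.91%) and 717 lower (3.35%). In reads unique to a gene, edgeR called 2 higher and 18 lower of 20955 tested genes. DESeq2 called 42 higher (0.233%) and 89 lower (0.494%). In all 19 genes called in total gene reads, both cob-6 libraries lay below both WT and both sfr6-3 libraries, as 10.3% of tested genes did. They were called as lower on these same WT and cob-6 libraries, so the choice largely fixed their place below WT. All 19 were also called with WT replicate 2 as the only wild type, and 16 in reads unique to a gene, a fit that called 0.0954% of genes. Their log2 fold changes against WT replicate 2 alone ran from -5.86 for MRD1 to -1.03 for AMT1-3. Without WT replicate 2 instead, 11 of the 19 were called, and that fit called 24 genes in all, 10 higher and 14 lower. When either cob-6 library was left out, 0 of them were called by edgeR.

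Wall glycoproteins and a glycine-rich protein formed one group of the 19. AGP30, a root arabinogalactan protein, stood at 14.5 and 31.2 CPM in WT and at 2.38 and 5.21 CPM in cob-6. It fell by 2.58 ± 0.40 on the log2 scale (adjusted p = 0.0354). AT1G23720, an extensin-like protein, stood at 57.7 and 82.3 CPM in WT and at 27.7 and 25.5 CPM in cob-6, and fell by 1.39 ± 0.18 (adjusted p = 0.015). AT4G38080, of a hydroxyproline-rich glycoprotein family, fell by 1.43 ± 0.22, from 66.6 and 92.2 CPM to 26.7 and 32.2 CPM. The glycine-rich protein gene AT4G33610 fell by 1.87 ± 0.28, from 18.6 and 32.6 CPM to 6.57 and 7.3 CPM. In each of these genes WT replicate 2 was the highest of the 4 libraries.

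A pair of class III peroxidases, secreted enzymes that can crosslink wall polymers or make reactive oxygen, fell with narrow spread. PER27 stood at 80.9 and 99.3 CPM in WT and at 27.4 and 29.6 CPM in cob-6. It had the smallest adjusted p of all genes, with a fall of 1.66 ± 0.15 (adjusted p = 0.00258). PER23 stood at 46.5 and 61.5 CPM in WT and at 11.4 and 16 CPM in cob-6, and fell by 1.98 ± 0.22 (adjusted p = 0.00444).

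Small secreted proteins of the lipid-transfer family made up 4 of the 19. AT5G46900 and AT5G46890, whose genes lie within a few kilobases of each other on chromosome 5, fell by 2.09 ± 0.21 and 1.72 ± 0.25. The first stood at 16.4 and 22.6 CPM in WT and at 4.30 and 4.80 CPM in cob-6, with 82.6% of its reads unique to it. AIR1B, a relative of the auxin-induced lateral root gene AIR1, fell by 1.60 ± 0.21, from 79.1 and 110 CPM to 32.0 and 30.2 CPM. AT3G22620 fell by 1.11 ± 0.17. MLP328, a major-latex-like protein, stood at 26.3 and 56.2 CPM in WT and at 7.45 and 10.2 CPM in cob-6, and fell by 2.21 ± 0.34 (adjusted p = 0.0354).

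The other called genes were a mixed set. The ammonium transporter gene AMT1-3, which takes up ammonium in roots, stood at 34.2 and 31.5 CPM in WT and at 15.7 and 15 CPM in cob-6, and fell by 1.1 ± 0.15 (adjusted p = 0.0251). It was the only one of 17 tested nitrogen genes that was called. AT5G44550, of the UPF0497 family to which the Casparian strip membrane proteins belong, fell by 1.18 ± 0.17. BCB, a blue-copper-binding protein, fell by 1.27 ± 0.18, from 47.7 and 47.3 CPM to 22.7 and 16.6 CPM. From the chloroplast genome, PSAB, a core subunit of photosystem I, fell by 1.63 ± 0.23 and the 16S ribosomal RNA RRN16S.1 by 1.46 ± 0.15. Only 0.1% of the RRN16S.1 reads were unique to it, since the chloroplast genome holds it in more than one copy.

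MRD1 and HEI10 gave the largest falls, 5.33 ± 0.57 and 2.63 ± 0.29. MRD1 stood at 17 and 42.8 CPM in WT and at 1.08 and 0.369 CPM in cob-6, while HEI10, a regulator of meiotic crossing over, stood at 12.7 and 13.5 CPM and at 1.88 and 2.34 CPM. Their loci overlap on chromosome 1 (19963047 to 19964712 and 19963267 to 19966952 in the deposited table), and 13.7% and 23.1% of their reads were unique to them. In unique reads MRD1 had a log2 fold change of -3.36 with all 8 libraries (adjusted p = 0.0603), of -3.83 against WT replicate 2 alone (adjusted p = 0.0082), and of -3.29 with the other 7 libraries subtracted from WT replicate 1 (adjusted p = 0.0301), so it passed in 2 of the 3 fits. HEI10 passed in none of them, at -0.82, -0.69 and -0.66 (adjusted p = 0.999, 0.843 and 0.874). No source used here says whether counting used strand, so shared reads of the overlap cannot be assigned to either gene.

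**Figure D2:**
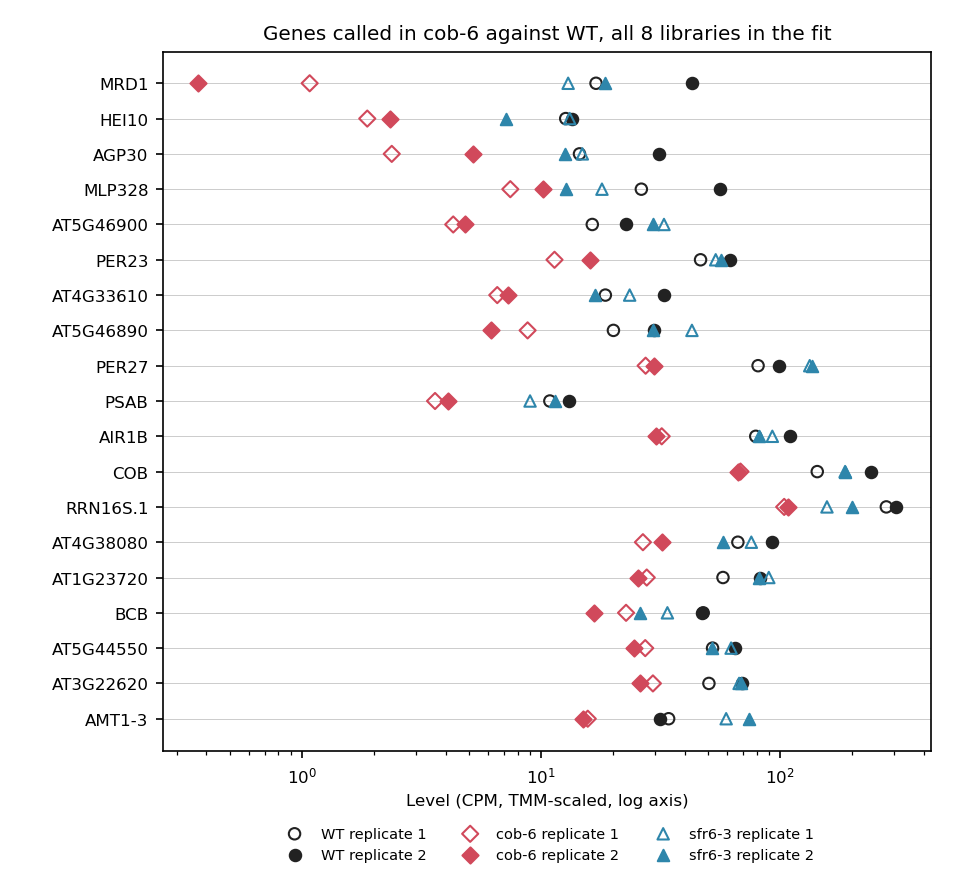
Levels in CPM (log axis) of the 19 genes called in cob-6 against WT, for the libraries of WT, cob-6 and sfr6-3; open symbols are replicate 1 and filled symbols replicate 2. Both cob-6 libraries lie below both WT and both sfr6-3 libraries in all 19 genes. The genes were called as lower in cob-6 than in WT, which largely fixed their place below WT.

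With WT replicate 2 as the only wild type, 138 of 22207 tested genes were called (0.621%), 40 higher in cob-6 (0.18%) and 98 lower (0.441%). At an unadjusted p below 0.05, 4.26% were higher and 4.85% lower. WT replicate 1 lay between WT replicate 2 and the nearer cob-6 library in 39 of the 40 and in 92 of the 98. Both cob-6 libraries were above both WT libraries in 39 of the 40 (20.4% of all tested genes), and above sfr6-3 too in 37 (10.5%). They were below both WT and both sfr6-3 libraries in 66 of the 98 (10.3%). These genes were called on the same cob-6 libraries and WT replicate 2, so the choice largely fixed this separation. It also favoured a WT replicate 1 between WT replicate 2 and cob-6, a place whose share over all tested genes was not counted. In the other 32 falls at least 1 WT or sfr6-3 library was not above both cob-6 libraries.

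Genes of growing root hairs stood higher in cob-6. Root hairs are tubular outgrowths of epidermal cells whose walls hold their own extensins, proline-rich proteins and peroxidases. Of 25 tested members, 13 were higher and none lower at an unadjusted p below 0.05 with all 8 libraries, with a median log2 fold change of 0.98 where that of all tested genes was 0.01. None of them was called in edgeR in that fit, whereas DESeq2 called 6. Against WT replicate 2 alone, 5 rose, 13 were higher at an unadjusted p below 0.05, and the median was 1.28. In 18 of the 25, both cob-6 libraries were above both WT libraries (20.4% of all tested genes), and in 17 also above both sfr6-3 libraries (10.5%).

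The members that rose with WT replicate 2 alone were wall and surface genes. RHS13 stood at 73.7 and 43.8 CPM in WT and at 130 and 111 CPM in cob-6, and rose by 1.46 ± 0.23 (adjusted p = 0.0114). PRP3, a proline-rich wall protein of root hairs, stood at 29.1 and 15.7 CPM in WT and at 55.4 and 47.6 CPM in cob-6, and rose by 1.72 ± 0.29 (adjusted p = 0.0129). Its relative PRP1 stood at 8.98 and 3.2 CPM in WT and at 21.1 and 19.7 CPM in cob-6, and rose by 2.67 ± 0.47 (adjusted p = 0.02). In all of these WT replicate 1 lay between the lower WT replicate 2 and cob-6. The peroxidase gene PER73 rose by 1.75 ± 0.24, from 19.8 CPM in WT replicate 2, beside 35.6 in replicate 1, to 69.0 and 64.3 CPM. RHS15 rose by 3.3 ± 0.55, from 0.771 CPM, beside 3.61, to 7.38 and 7.92 CPM.

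Other root hair members did not move with these. The transcription factor genes BHLH83 and BHLH85 stood at 1.39 and 1.34 CPM and at 2.99 and 3.89 CPM in WT, and at 1.08 and 1.44 CPM and at 3.53 and 2.59 CPM in cob-6, with overlapping groups. COBL9, the COBRA relative needed for root hair tip growth, stood at 4.50 and 6.53 CPM in WT and at 5.76 and 5.38 CPM in cob-6, a log2 fold change of 0.03 ± 0.41 (adjusted p = 1.0). CSLD3, which makes wall polysaccharide at the hair tip, stood at 56.5 and 68.4 CPM in WT and at 68.7 and 61.2 CPM in cob-6. Of 10 genes that set the hair and non-hair cell files, none was called by edgeR or DESeq2 or passed an unadjusted p of 0.05, and their median was -0.03. In whole seedlings, more cells of a type and more RNA per cell cannot be told apart.

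**Figure D3:**
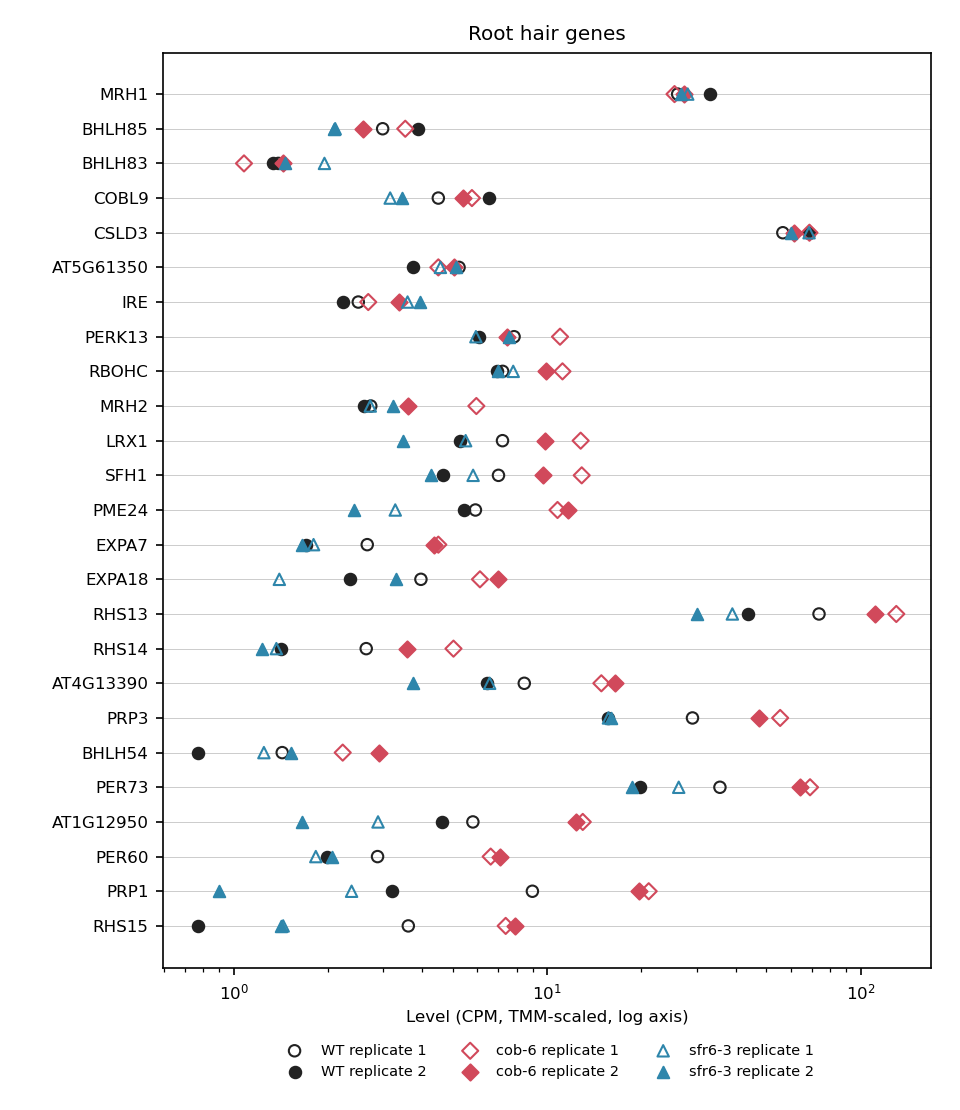
Levels in CPM (log axis) of the 25 tested root hair genes in WT, cob-6 and sfr6-3; open symbols are replicate 1 and filled symbols replicate 2. In 18 genes both cob-6 libraries lie above both WT libraries, and COBL9, CSLD3, BHLH83, BHLH85 and MRH1 are among the 7 whose groups overlap.

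Extensins, the rod-like structural proteins of the wall, went both ways. AT5G06630, AT5G06640 and AT5G49080 rose with WT replicate 2 alone by 2.18 ± 0.26, 1.70 ± 0.28 and 2.36 ± 0.39. AT5G06630 stood at 16.6 and 7.46 CPM in WT and at 35.2 and 32.6 CPM in cob-6 (adjusted p = 0.00142). EXT3, an extensin that forms the wall scaffold of dividing cells, instead fell by 1.09 ± 0.19 in that fit, from 570 CPM in WT replicate 2, beside 332 in replicate 1, to 235 and 298 CPM (adjusted p = 0.0154). The list of 33 extensin, arabinogalactan and proline-rich genes holds AT5G06640 and EXT3 but neither AT5G06630 nor AT5G49080. Its 3 rises with WT replicate 2 alone were AT5G06640, PRP1 and PRP3, its 2 falls EXT3 and AGP30, and its median was -0.17. Xyloglucan-modifying enzymes also went both ways in that fit, with XTH14 rising by 1.27 ± 0.26 and XTH15 falling by 1.78 ± 0.25. XTH15 was at 46.7 CPM in WT replicate 2, 15.9 in replicate 1, and 16.2 and 11 CPM in cob-6, so replicate 1 lay among the cob-6 values.

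The class III peroxidases as a family moved in both directions. Of 46 tested, 12 were higher and 9 lower at an unadjusted p below 0.05 with all 8 libraries, with 2 called by edgeR, both lower, and 5 higher and 2 lower called by DESeq2. In the fit with the lone WT library, 4 rose and 4 fell. PER49 stood at 19.5 and 4.50 CPM in WT and at 33.3 and 34.7 CPM in cob-6, and rose by 2.92 ± 0.30 (adjusted p = 0.000512). PER37 rose by 2.06 ± 0.31, from 6.61 CPM in WT replicate 2, beside 16.5 in replicate 1, to 25.5 and 29.5 CPM. PER52 and PER73 were the other 2 that rose. Beside PER23 and PER27, PER21 and PER47 fell by 1.29 ± 0.20 and 1.27 ± 0.24. PER21 stood at 166 and 349 CPM in WT and at 158 and 128 CPM in cob-6, so WT replicate 1 was near cob-6. The sfr6-3 libraries lay below cob-6, at 74.5 and 61.9 CPM.

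Genes of aliphatic glucosinolates, the sulfur-rich defence compounds made from methionine, stood higher in cob-6. All 20 tested members had a positive log2 fold change, and in all 20 both cob-6 libraries were above both WT libraries (20.4% of all tested genes). In 13 of the 20 they were also above both sfr6-3 libraries (10.5%). The median was 0.63, and 9 members were higher at an unadjusted p below 0.05. With WT replicate 2 alone the median was 0.87, 15 members were higher at that level, and 2 rose. MAM3, of methionine side-chain elongation, stood at 50.2 and 37.8 CPM in WT and at 84.7 and 110 CPM in cob-6, and rose by 1.36 ± 0.23 in that fit (adjusted p = 0.0126), beside 1.14 ± 0.19 with all 8 libraries (adjusted p = 0.0508). CYP79F2, which makes the aldoximes of the pathway, rose by 1.67 ± 0.25, from 7.87 CPM in WT replicate 2 to 25.4 and 24.8 CPM, with WT replicate 1 in between. BCAT4, the first enzyme of the elongation cycle, stood at 83.3 and 57.8 CPM in WT and at 180 and 170 CPM in cob-6, with 1.60 ± 0.35 (adjusted p = 0.0621).

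Among 16 tested genes of sulfur assimilation and starvation, 2 were higher and 1 lower at an unadjusted p below 0.05 with all 8 libraries. The median was 0.38 in that fit, and 0.68 in the second, against WT replicate 2 alone. APR1 and APR3, adenosine-phosphosulfate reductases that commit sulfate to reduction, rose by 1.84 ± 0.34 and 1.32 ± 0.25 in the second fit, as the only 2 called there. APR1 stood at 22.5 and 8.72 CPM in WT and at 39.4 and 23.2 CPM in cob-6, so WT replicate 1 was near the second cob-6 library. Of 14 jasmonate synthesis genes, 5 were higher at an unadjusted p below 0.05 in both fits, at medians of 0.29 and 0.51, and none was called in either or by DESeq2. In unique reads with the other 7 libraries subtracted from WT replicate 1, 2 were called higher. Of 17 tested jasmonate response genes of the MYC branch, 4 were higher with all 8 libraries and 5 against WT replicate 2 alone, at medians of 0.41 and 0.32, with 1 called in the second fit. LOX2, which makes a jasmonate precursor in plastids, stood at 135 and 55.3 CPM in WT and at 406 and 165 CPM in cob-6, a log2 fold change of 2.37 ± 0.53 with WT replicate 2 alone (adjusted p = 0.0639). CORI3, the called gene of the MYC branch, rose by 2.58 ± 0.53 (adjusted p = 0.0455), from 6.73 CPM, beside 16.4 in replicate 1, to 55.4 and 25.3 CPM. The 2 cob-6 libraries differed by more than 1.5 times in LOX2, CORI3 and APR1.

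Aquaporins, the water channels of the plasma membrane (PIP) and vacuole (TIP), stood lower in cob-6. Of 21 tested, 11 were lower and none higher at an unadjusted p below 0.05, and the median log2 fold change was -0.55. None was called by edgeR with all 8 libraries, while DESeq2 called 6. Against WT replicate 2 alone 9 fell and the median was -0.80. TIP2-3 stood at 13.9 and 41.5 CPM in WT and at 3.46 and 2.79 CPM in cob-6, and fell by 3.73 ± 0.45 in that fit (adjusted p = 0.00148). PIP2-4 was at 11.3 and 9.64 CPM in cob-6, below both WT libraries, the higher of which was at 27.3 CPM, and fell by 1.38 ± 0.22 (adjusted p = 0.0121). TIP1-1 stood at 566 and 802 CPM in WT and at 399 and 393 CPM in cob-6, and fell by 1.02 ± 0.17 (adjusted p = 0.0139). Both cob-6 libraries lay below both WT and both sfr6-3 libraries in 10 of the 21 (10.3% of all tested genes). TIP2-2, at 184 CPM in WT replicate 2, stood at 81.6 CPM in replicate 1 and at 54.4 and 46.5 CPM in sfr6-3, with the cob-6 libraries at 76.8 and 54.7 CPM, so cob-6 lay below WT but not below sfr6-3.

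**Figure D4:**
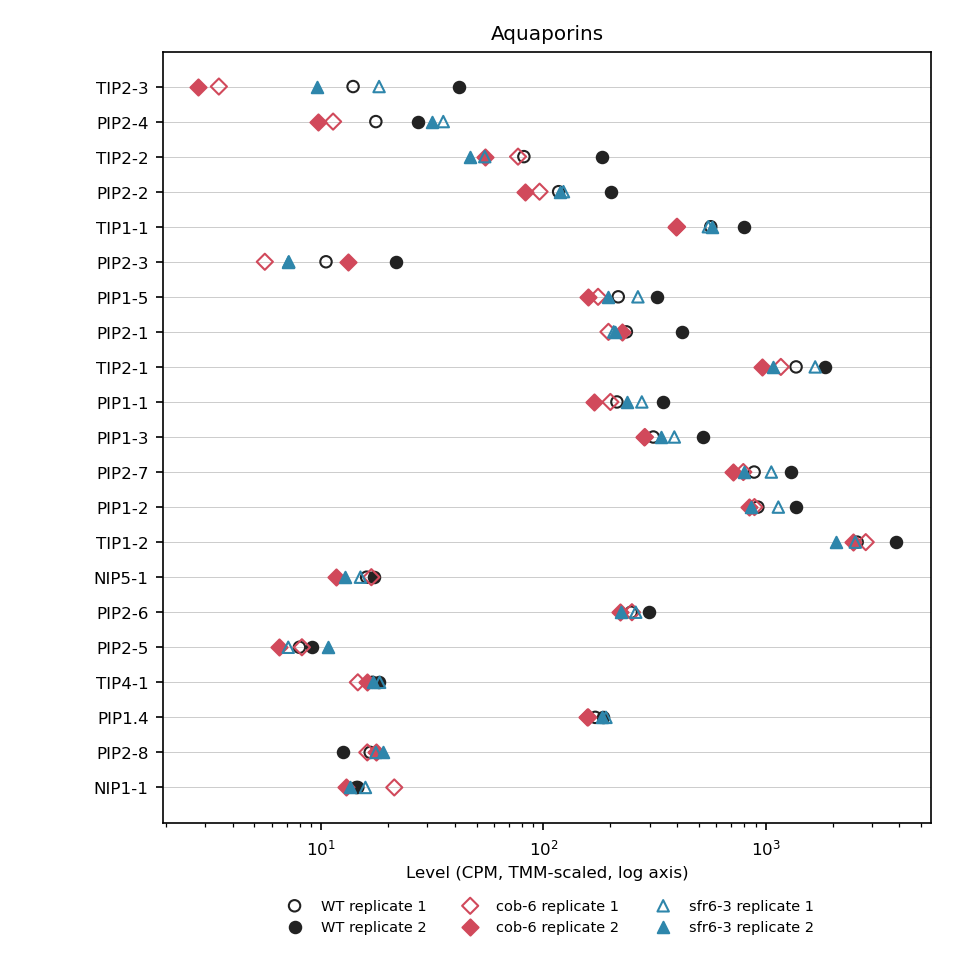
Levels in CPM (log axis) of the 21 tested aquaporin genes in WT, cob-6 and sfr6-3; open symbols are replicate 1 and filled symbols replicate 2. TIP2-3, PIP2-4 and TIP1-1 are lower in both cob-6 libraries than in WT and sfr6-3, and in several others WT replicate 2 alone is high.

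The endodermis, the inner root layer sealed by the Casparian strip and later by suberin, was read lower in cob-6. In 17 of 19 tested genes both cob-6 libraries lay below both WT and both sfr6-3 libraries (10.3% of all tested genes). The median was -0.55, and 9 members were lower and none higher at an unadjusted p below 0.05; edgeR called none with all 8 libraries and DESeq2 called 1. When WT replicate 2 stood alone the median was -0.58 and CASP1, a scaffold of the strip, fell by 1.09 ± 0.23 (adjusted p = 0.0483). CASP1 stood at 23.6 and 31.5 CPM in WT and at 14.3 and 15.4 CPM in cob-6, with no overlap. CYP86A1, an enzyme of root suberin, stood at 42.8 and 69.6 CPM in WT and at 28.5 and 33.4 CPM in cob-6, a log2 fold change of -1.17 ± 0.27 (adjusted p = 0.0782). The mean log2 CPM of the list, centred over the 8 libraries, came to 0.08 and 0.33 for WT, against -0.39 and -0.59 for cob-6. That of the root hair genes came to 0.08 and -0.37 for WT, against 0.73 and 0.64 for cob-6.

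More falls with WT replicate 2 alone were in the families of MLP328 and AIR1B. AIR1 stood at 17.7 and 46.2 CPM in WT and at 7.07 and 3.65 CPM in cob-6, and fell by 3.1 ± 0.38 (adjusted p = 0.00168). MLP329 and MLP34 fell by 2.04 ± 0.21 and 1.93 ± 0.22, MLP34 from 507 CPM, beside 239 in WT replicate 1, to 128 and 139 CPM. MLP423 went the other way and rose by 1.3 ± 0.24, from 23.2 CPM, beside 46.7, to 56.9 and 57.6 CPM. EARLI1, a lipid-transfer-like protein, also rose, by 2.24 ± 0.44, from 13.4 CPM, beside 47.3, to 50.2 and 76.5 CPM. For MLP423 and EARLI1 the level in WT replicate 1 was close to the lower cob-6 library.

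Among further falls with WT replicate 2 alone, chosen after their values were seen, were 3 transporter genes. The sugar transporter gene STP1, the zinc transporter gene ZIP2 and the nitrate transporter gene NPF7.3, which loads nitrate into the xylem, fell by 1.4 ± 0.28, 1.39 ± 0.19 and 1.22 ± 0.19. ZIP2 stood at 56.4 and 102 CPM in WT and at 38.1 and 39.7 CPM in cob-6. STP1, at 578 CPM in WT replicate 2, stood at 231 CPM in replicate 1 and at 227 and 211 CPM in cob-6, so that its fall rests on WT replicate 2. The same held for ASN1, a gene induced when sugar is short, at 904 CPM in WT replicate 2, 276 in replicate 1, and 359 and 184 CPM in cob-6, which was not called (adjusted p = 0.128). Of 20 tested genes of sugar starvation and seedling reserves, 5 were lower at an unadjusted p below 0.05 with all 8 libraries, at a median of -0.48. In the fit with the lone WT library 9 of 21 were lower at that level, and TPS11 fell.

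Nuclear genes of photosynthesis, from light-harvesting proteins to Rubisco small subunits, served as markers of green tissue. Of 22 tested, 7 were lower and none higher at an unadjusted p below 0.05, at a median of -0.28, with none called by edgeR and 3 by DESeq2. Against WT replicate 2 alone 11 were lower and 1 higher, at a median of -0.42. LHCB2.2 stood at 1440 and 2260 CPM in WT and at 807 and 1280 CPM in cob-6, and fell by 1.12 ± 0.23 with WT replicate 2 alone (adjusted p = 0.0439). Over the 22 genes of the list, the centred mean log2 CPM ran 0.09 and 0.33 for WT against -0.28 and 0.02 for cob-6, so the second cob-6 library was near WT. The sfr6-3 libraries, at -0.19 and 0.09, overlapped those of cob-6. In 5 of the 22 genes both cob-6 libraries lay below both WT and both sfr6-3 libraries (10.3% of all tested genes). Of 100 tested genes of the chloroplast genome, 27 were lower and 1 higher at an unadjusted p below 0.05, at a median of -0.39, and PSAB and RRN16S.1 were the 2 called. Both cob-6 libraries lay below both WT and both sfr6-3 libraries in 20 of the 100 (10.3% of all tested genes). Against WT replicate 2 alone 16 of 106 were lower, at a median of -0.33. The part of these marker levels in the results of the gene groups above was not tested.

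Circadian clock genes did not move one way. Of 18 tested, 2 were higher and 4 lower at an unadjusted p below 0.05, at a median of 0.04, with none called by edgeR and 4 lower by DESeq2. Against WT replicate 2 alone 4 were higher and 5 lower, at a median of -0.10, and 3 fell. CCA1 stood at 54.2 and 76.0 CPM in WT and at 33.7 and 40.5 CPM in cob-6, and fell by 1.03 ± 0.20 in that fit (adjusted p = 0.0368). RVE1, a CCA1 relative, fell by 1.24 ± 0.23, and AT3G54500 by 1.07 ± 0.21. The labels give no hour of harvest.

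Genes of cellulose synthesis, the process that COBRA serves, did not pass the test. Of 12 tested genes of the primary wall machinery, none was called by edgeR or DESeq2. None reached an unadjusted p of 0.05 with all 8 libraries, at a median of -0.12. The median was -0.27 against WT replicate 2 as the only wild type, beside 0.02 for all tested genes. In both fits 10 of the 12 log2 fold changes were negative. With WT replicate 2 alone, KOR, the membrane endoglucanase, was the 1 member below 0.05, at -0.50 ± 0.20 (adjusted p = 0.454). CESA3 stood at 642 and 849 CPM in WT and at 708 and 653 CPM in cob-6, and CESA1 at 566 and 770 CPM and at 612 and 586 CPM, so the groups overlapped in both. CESA6 and CSI1 had log2 fold changes of -0.14 ± 0.15 and -0.11 ± 0.15. Per length, COB had a deposited RPKM of 77.3 and 122 for WT but 37.9 and 36.3 for cob-6. CESA3 had 175 and 219 for WT, then 201 and 182 for cob-6.

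The COBRA relatives did not pass the test either. Of 8 tested family members, COB was the 1 called. COBL1 stood at 14.2 and 15.5 CPM in WT and at 16.3 and 16.7 CPM in cob-6. COBL5, whose groups did not overlap, stood at 6.42 and 5.52 CPM and at 8.22 and 9.97 CPM, with 0.60 ± 0.25 (adjusted p = 0.873). The COBL members other than COBL5 had log2 fold changes of -0.06 to 0.16. By deposited RPKM, COBL1 was at 8.36 and 8.63 in WT, below the 36.3 of COB in the lower cob-6 library.

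Several lists had no gene called by edgeR in either fit. Of 24 secondary wall and xylem genes, 4 were lower at an unadjusted p below 0.05, at a median of -0.34, with none called by DESeq2. In 13 of the 24 both cob-6 libraries lay below both WT and both sfr6-3 libraries (10.3% of all tested genes). The centred mean log2 CPM of this list was -0.05 and 0.06 for WT and 0.38 and 0.30 for sfr6-3, against -0.40 and -0.34 for cob-6. Against WT replicate 2 alone 5 were lower, at a median of -0.39. Of 25 iron deficiency genes, 4 were higher and 1 lower at that level, at a median of 0.31, against 8 higher and 1 lower and a median of 0.63 with WT replicate 2 alone. The 2 cob-6 libraries differed, at -0.23 and 0.49 in centred mean log2 CPM. Tubulins and microtubule proteins (21 tested), salicylic acid defence (15), heat shock and the unfolded protein response (16) and the Mediator tail (9) had no member at an unadjusted p below 0.05 in either fit, and none called in DESeq2. Among 20 tested wall integrity receptors and ligands none reached that level with all 8 libraries, at a median of -0.01, and 1 was higher and 3 lower against WT replicate 2 alone. Their receptor kinase FER gave -0.25 ± 0.18 (adjusted p = 0.999).

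**Figure D5:**
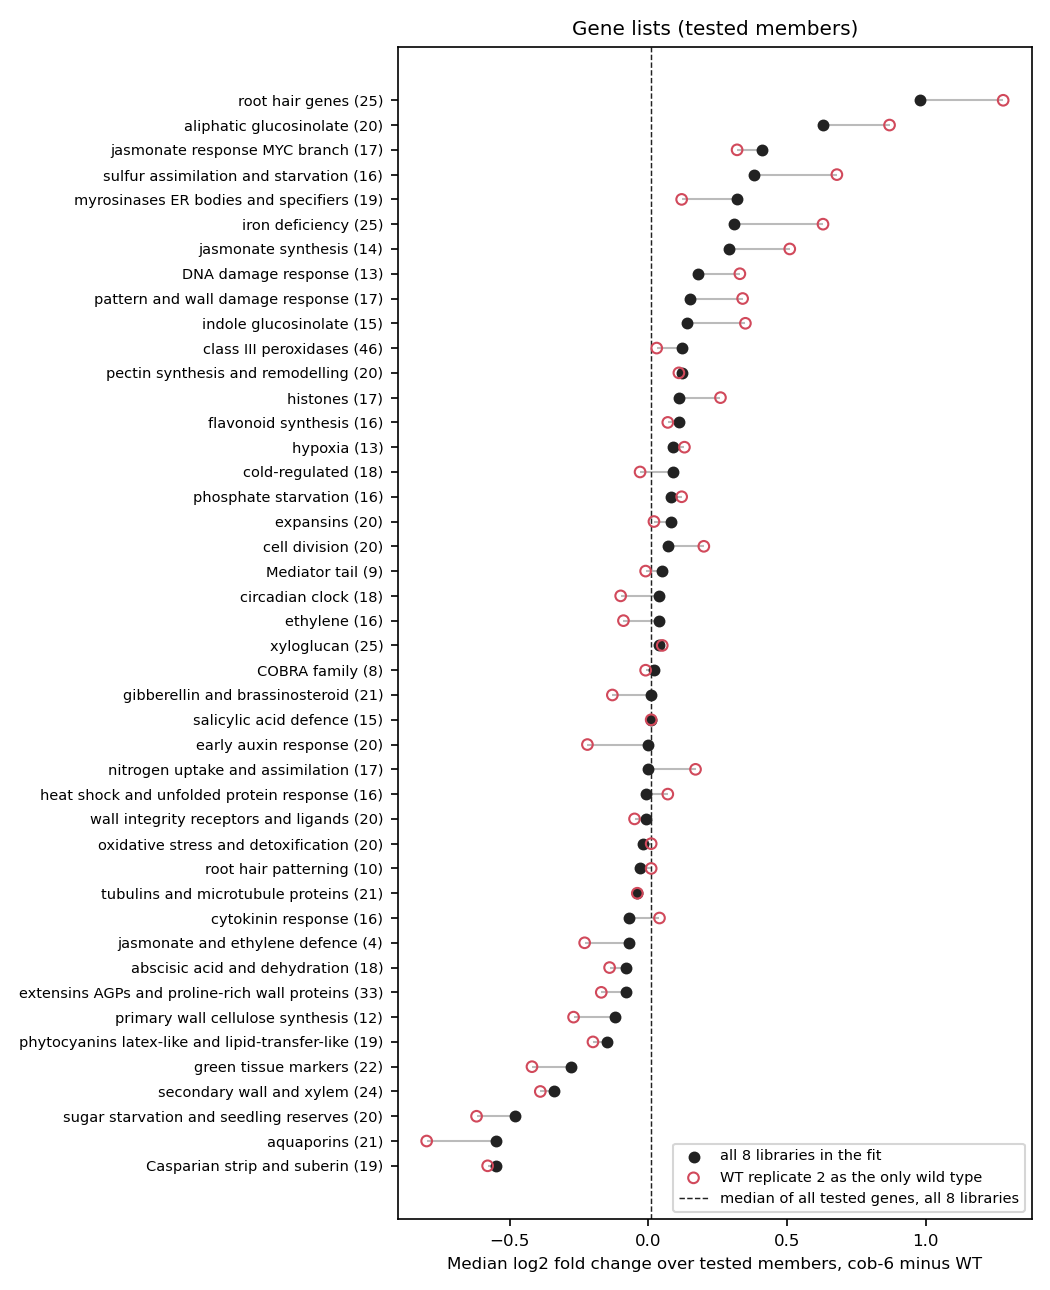
Median log2 fold change, cob-6 minus WT, over the tested members of the 44 gene lists (number tested in brackets), with all 8 libraries in the fit (filled) and with WT replicate 2 as the only wild type (open); the dashed line is the median of all tested genes. The root hair and aliphatic glucosinolate lists are at the high end, at 0.98 and 0.63, and the aquaporin and Casparian strip lists at the low end, both at -0.55.

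The double mutant and sfr6-3 also differ by cob-6 and share no library with the comparison of cob-6 with WT replicate 2. Of the 40 genes that rose in that comparison, 37 had a higher level in the double mutant than in sfr6-3 (51.3% of tested genes did), and 1 was called. The test called 0.0468% of all genes higher and 0.0281% lower. Of the 98 that fell, 85 had a lower level (48.7%), and 3 were called lower and 2 higher. PER27, AT5G46900 and PIP2-4 fell in both, the first by 1.07 ± 0.15 (adjusted p = 0.021) from 133 and 136 CPM in sfr6-3 to 66.1 and 62.2 CPM in the double mutant. TIP2-3 was at 1.67 and 0.511 CPM in the double mutant, below both sfr6-3 libraries, the lower of which was at 9.54 CPM, with -3.73 ± 0.60 (adjusted p = 0.0511). PER49 stood at 3.51 and 4.79 CPM in sfr6-3 and at 30.9 and 41.5 CPM in the double mutant, with 3.12 ± 0.50 (adjusted p = 0.0511). BCB and RRN16S.1 went the other way, and rose in the double mutant by 1.63 ± 0.18 and 1.04 ± 0.15. Of the 25 root hair genes 8 were higher and none lower at an unadjusted p below 0.05 (7.6% and 6.78% of tested genes), at a median of 0.49. Of the 19 endodermal genes none was higher and 5 were lower, at a median of -0.39. Medians also kept their sign for aliphatic glucosinolates (0.37), sulfur assimilation and starvation (0.49) and jasmonate synthesis (0.48). The same held for secondary wall and xylem (-0.31) and aquaporins (-0.25). For aliphatic glucosinolates, the centred mean log2 CPM was -1.01 and 0.02 in sfr6-3 against 0.18 and 0.16 in the double mutant. The second sfr6-3 library was thus near the double mutant. Some lists changed direction or came near the median of all tested genes (0.01). The chloroplast genome, with a median of -0.39 in cob-6 against WT, had 20 genes higher and 1 lower, at a median of 0.30. Its centred mean log2 CPM was -0.37 and 0.19 for sfr6-3 against 0.38 and 0.01 for the double mutant, so these groups overlapped. Medians were 0.01 for green tissue, 0.09 for the MYC branch and 0.03 for sugar starvation. The interaction, which compares the effect of cob-6 with and without sfr6-3, was called for 11 of 21384 genes (0.0514%), 5 of them among the 19, which had been chosen on one of the differences it compares.

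The authors' list of 147 genes, picked as altered by cob-6 but not once sfr6-3 was added, was chosen on these samples, so its direction here is not independent evidence. Of 146 tested, 70 were higher and 70 lower at an unadjusted p below 0.05 and 8 were called with all 8 libraries, all lower. With WT replicate 2 alone, 20 rose and 22 fell, which was 20 of the 40 rises and 22 of the 98 falls of that fit.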

How the data were processed

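For every library the deposited sheet holds read counts per gene (total, unique, exon and intron reads) and RPKM, per the file headers. No source used here gives the aligner, the strand setting or the build. RPKM values, as deposited, were used only to set levels of different genes side by side. The workbook held 0 columns of other series. Symbols of 32835 of 33602 loci were matched to the RefSeq gene table by locus.

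Total gene reads were tested with edgeR 4.0.16 (R 4.3.3) by its quasi-likelihood test, with TMM scaling, genes kept by filterByExpr and 1 mean per genotype over all 8 libraries. Adjusted p-values are from that test with Benjamini-Hochberg adjustment across the table, and calls were made below 0.05; log2 fold changes carry standard errors. The same fit without WT replicate 1, unique or exon reads, DESeq2 1.42.0 and the settings in the closing part were alternatives. The fit was run on simulated counts with known changes. All libraries were drawn independently there, so that run does not cover a WT replicate 1 that holds reads of other libraries. Replicate numbers did not pair the libraries (correlations of deviations -0.074 to 0.049).

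The comparison and the 44 gene lists (860 names, 2 dropped because 1 matched no gene and the other named a gene of another family) were chosen with earlier results of these data known, and so was the rule for named genes: COB and MED16, every gene called with all 8 libraries, the 15 largest rises and falls called without WT replicate 1 at a mean log2 CPM of at least 1, up to 4 members per list with the smallest p there, and the tested members of the COBRA and cellulose synthesis lists. Genes named beyond it (BHLH83, BHLH85, CSLD3, MRH1, PER21, PER47, TIP1-1, STP1, ZIP2, NPF7.3, MLP423, PBG1 and AAO1) were chosen after their values were seen.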

Additional observations from a re-analysis of the deposited data

Results flagged for a closer look

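In 5 of the 19 genes called in cob-6 against WT, the effect of cob-6 differed between plants with normal MED16 and plants with sfr6-3, by edgeR's interaction test with Benjamini-Hochberg adjustment over all tested genes, which called 11 of 21384 genes (0.0514%). The 19 had been chosen on one of the differences that this test compares. Each value is the log2 fold change of the double mutant against sfr6-3 minus that of cob-6 against WT. It was 6.14 ± 0.71 (SE) for MRD1 (adjusted p = 0.00778), 3.87 ± 0.40 for HEI10 (adjusted p = 0.00254), 2.48 ± 0.32 for PSAB (adjusted p = 0.0152), 2.50 ± 0.22 for RRN16S.1 and 2.91 ± 0.26 for BCB (both adjusted p = 0.00069). All 5 had lower levels in cob-6 than in WT and higher levels in the double mutant than in sfr6-3. For MRD1 and HEI10 most reads were not unique to the gene.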

How the results depend on the processing

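The value of COB in cob-6 against WT was negative under every setting run, from -1.08 without WT replicate 2 to -1.84 without WT replicate 1 and cob-6 replicate 1. It was not called without either cob-6 replicate (-1.51 and -1.48, adjusted p = 0.319 and 0.295) or with only the 4 libraries of WT and cob-6 (-1.50, adjusted p = 0.0891). The number of genes called in cob-6 against WT, 19 with all 8 libraries, depended far more on the setting. With 1 library left out, it was 0 without cob-6 replicate 1 or 2 (704 and 722 genes at an unadjusted p below 0.05), 24 without WT replicate 2 and 138 without WT replicate 1. It was 174 in unique reads without WT replicate 1, 88 in unique reads with the other 7 libraries subtracted from WT replicate 1, 356 with no filter on low counts, 8 with only the 4 libraries, and 131 with DESeq2. Settings chosen after seeing the data gave 75 and 91 without WT replicate 1 and a cob-6 replicate, 218 without WT replicate 1 and the double mutant, and 351 with DESeq2 without WT replicate 1. The cause was not tested. With the replicate number as a block (replicate block), 21 genes were called, 18 of them among the 19, although the numbers did not pair the libraries.

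Some uncalled genes changed sign. Over the fits that left out 1 or 2 libraries, values ran from -0.24 to 0.49 for MED16, from -0.28 to 0.31 for COBL9, from -0.16 to 0.20 for CSLD3, from -0.35 to 0.10 for BHLH83, from -0.59 to 0.05 for BHLH85, from -0.28 to 0.05 for CSI1, from -0.37 to 0.01 for MRH1, from -0.39 to 0.08 for CESA1, from -0.38 to 0.08 for CESA3, from -0.39 to 0.01 for CESA6 and from -0.59 to 0.04 for KOR. In the remaining settings, MED16 gave -0.01 without WT replicate 1 in unique reads or without the double mutant, and -0.02 in DESeq2 without WT replicate 1. COBL9 gave -0.23 in the first 2 of these, -0.24 in the third, and -0.05 after subtraction. CSLD3 gave -0.08, -0.07 and -0.09, and BHLH83 gave 0.31 after subtraction.

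At this depth 3 reads set the floor, and with 2 libraries a group the spread is poorly known.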
